A study of Homo sapiens with 4 samples.

Results

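The sites described here were adenosines in the consensus context of N6-methyladenosine (m6A) that had A or U at −2, that is 2 nt before the adenosine, and A directly before it, in RNAs that had been selected for another adenosine. The series measured how a recombinant METTL3–METTL14 complex methylated a pool of 11999 designed RNAs. The assay was miCLIP2, in which an m6A antibody is crosslinked to RNA and reverse transcription stops beside the crosslink, and its counts were given for each of 141 nucleotides. The methylated group held 2 libraries of RNA incubated with the complex, and the unmethylated group held 2 libraries of the same RNA pool incubated without it. Both groups consisted of in vitro transcripts taken through the same immunoprecipitation from 500 ng of RNA, so no cell or tissue was sampled. Every RNA carried a designed stretch, a 15-nt tag and a 21-nt linker. The 2 classes described here held 3488 of the 3949 sequences of the pool. Their stretches came from human transcripts, and 3 RNAs with different tags represented each of their sequences. Each sequence of these classes had been picked around 1 adenosine, which the table holds at position 51. In human HEK293T cells that adenosine was either methylated (m6A class, 1988 sequences) or not (unmodified class, 1500 sequences). A bystander is any other adenosine of such a sequence. Members were found from the sequences alone, as adenosines with A or U at −2, A at −1, C at +1 and A, C or U at +2. There were 1659 of them among 556809 positions in the whole table. They made up 20.1% of the 8271 bystanders in the DRACH context, where D stands for any base but C, R for a purine and H for any base but G.

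METTL3 is the catalytic subunit of the writer and METTL14 is its partner, which helps to hold the RNA. The complex writes most m6A of messenger RNA, and the modification is known for marking transcripts for decay and for changes in splicing and translation. Within DRACH, motifs with G at −1 and G at −2 are the textbook strong substrates. Motifs with A at −1 and A or U at −2 belong to the weak end of the consensus.

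The members fell into 6 motifs, with 403 sites of AAACA, 364 of AAACC, 395 of AAACU, 197 of UAACA, 175 of UAACU and the remaining sites of UAACC. They lay in 1178 sequences, of which 822 held 1 member, 270 held 2 and 86 held 3 or more, with at most 6. The m6A class contributed 881 members and the unmodified class 778. A total of 1466 members were in loci that overlapped exactly 1 RefSeq gene, 881 genes in all. Members are not independent of each other, because 87 of them shared the surrounding 21 nt with another member in an overlapping or repeated sequence. A further overlap concerns the choice of sequences, because 25 members shared their 21-nt window with the selected adenosine of another sequence, which had been picked for its state in cells, and none of these 25 had enough counts to be tested singly. Predicted folding of the 141 nt put 1271 members in mainly unpaired positions, with a median unpaired probability of 0.906.

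The following sequences are those of members whose values are given further on. They are 21-nt windows of the designed RNAs, 5′ to 3′, with T for U and the 5-mer in capitals, and the middle capital is the adenosine measured. The distance is that from the selected adenosine. The first group holds members with U at −2 that rose in the methylated libraries.
DICER1, 67 nt downstream: gatggattTAACCtggagcgg
MARK3, 18 nt downstream: aacgtaagTAACCtgggcgtt
NIPA1, 11 nt downstream: ctggatagTAACAggtggtct
LEMD2, 27 nt downstream: gggctgttTAACAagaacttc
HEY2, 32 nt downstream: agagtgccTAACAgaagttgc
The second group holds members with A at −2 that rose.
FBXL15, 37 nt downstream: ctgtagggAAACTgaactgtg
ZBTB43, 16 nt downstream: tgtgatcgAAACAggtggaca
ARF6, 19 nt downstream: atgccatgAAACCccacgaga
CDK12, 52 nt downstream: agaagaggAAACAgacttgag
AKAP12, 63 nt downstream: tgatgagaAAACCaaagacgt
The third group holds deep members that did not pass the test.
GIGYF2, 67 nt downstream: gccactgcTAACTttgggatt
MXRA8, 16 nt downstream: cagccccaAAACTggggtcag
INPP5E, 7 nt downstream: aggacagcAAACAaggtcgac

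The libraries held 13110615 and 13265092 counts in the methylated group and 10483825 and 12028474 in the unmethylated group. Replicates of a group differed by more than sampling noise over oligonucleotide totals (chi-square over degrees of freedom of 19.9 for methylated and 22.1 for unmethylated), so all 4 libraries were kept apart. Members were shallow sites. With the 3 tags of a sequence summed, 586 members had no count in any library and 483 had a count in each of the 4. The highest counts of a single member were 575 and 501 in the methylated libraries and 330 and 451 in the unmethylated ones. The 10 deepest members held 20.8% of all member counts, and a low share of reads at a site cannot tell few RNA molecules from little methylation.

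The 1659 members, pooled without any count filter, had more crosslinks in the methylated libraries. They took 1198 and 1225 CPM (counts per 1000000 counts of the library) in the methylated libraries, against 773 and 717 CPM in the unmethylated ones. The means were 1211 CPM in methylated and 745 CPM in unmethylated libraries, a ratio of 1.63 ± 0.0903 (SD from the replicates, n = 2 each). Both methylated libraries lay above both unmethylated ones. The exact two-sided permutation p over the 4 libraries was 0.333, which is the smallest value that 2 against 2 libraries can give. Without the 10 deepest members the ratio was 1.65, and it was 1.62 with each 21-nt window counted once.

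Of the offsets from −5 to +5, the adenosine itself had the largest ratio. At the 4 nearest nucleotides on the 5′ side the pooled ratios were 1.07, 0.998, 0.988 and 0.925, read outwards from offset −1, and the groups overlapped at each of them. On the 3′ side they were 0.994, 0.963, 1.00 and 1.02 at offsets +1 to +4, again with overlapping groups. At −5 and +5 the ratios were 1.15 and 1.08, without overlap of the groups. Members with A at −2 had a ratio of 0.948 at offset +2, also without overlap. For members with U at −2 alone, offset −1 took 570 and 594 CPM in the methylated libraries, against 497 and 478 CPM in the unmethylated ones, a ratio of 1.20, and offset +5 had a ratio of 1.33. The sequences that held members overlapped between the groups when counted whole, with 155580 and 164160 CPM in the methylated libraries, against 157540 and 152220 CPM in the unmethylated ones.

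Members differed by their base at −2. Sites with U at −2 took 430 and 422 CPM in the methylated libraries, against 221 and 227 CPM in the unmethylated ones, a ratio of 1.90 ± 0.0392. Sites with A at −2 took 768 and 803 CPM in the methylated libraries, against 552 and 490 CPM in the unmethylated ones, a ratio of 1.51 ± 0.134 (SD, n = 2 each). The groups did not overlap for either base. The log2 ratio of U sites to A sites was −0.84 and −0.93 in the methylated libraries, against −1.32 and −1.11 in the unmethylated ones, a difference of 0.33. The exact permutation p of this difference was 0.333, and 0.564 after Benjamini-Hochberg adjustment over 22 such comparisons between classes. With 4 libraries this permutation test cannot reach the threshold, and the difference was not tested in another way.

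All 6 motifs rose in a fit across every 5-mer, in which counts were summed per 5-mer over the bystander positions of both classes. The quasi-likelihood test of edgeR was used, with p-values adjusted by Benjamini-Hochberg over all 5-mers. It called 6.35% of 5-mers higher and 4.3% lower in methylated than in unmethylated libraries. UAACA led the members with a log2 fold change of 1.27 ± 0.11 SE (adjusted p = 2.15e-05), the seventh largest of all 5-mers, behind the 4 GGAC motifs and 2 of the GAAC motifs. The next member, UAACC, followed with 1.03 ± 0.11 (adjusted p = 9.52e-05). The remaining 4 motifs formed a close group. Their log2 fold changes were 0.68 ± 0.09 for AAACC (adjusted p = 0.000533), 0.64 ± 0.11 for UAACU (0.00267), 0.59 ± 0.11 for AAACU (0.00471) and 0.59 ± 0.10 for AAACA (0.00267, edgeR adjusted p in each case). Neighbours in this order differed by no more than 1 standard error. The lead of UAACA turned when the deepest member of each motif was left out, a setting added after the values had been seen, since its log2 fold change was then 1.13 and that of UAACC was 1.205 (edgeR in both cases). AAACU missed the threshold without methylated replicate 2 (log2 fold change 0.52, edgeR adjusted p = 0.0512), where 4.3% of 5-mers were higher and 1.46% lower.

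The counts behind these tests show how the motifs differed between libraries. UAACA had 1913 and 1977 counts in the methylated libraries, against 704 and 689 in the unmethylated ones. UAACC had 1743 and 1679 counts in the methylated libraries, against 659 and 802 in the unmethylated ones. UAACU had 1976 and 1946 counts in the methylated libraries, against 959 and 1237 in the unmethylated ones. Of the UAACU counts, 1 site in GIGYF2 alone held 575 and 501 in the methylated libraries and 330 and 451 in the unmethylated ones. Among motifs with A at −2, AAACA had 4115 and 4028 counts in the methylated libraries, against 2376 and 2302 in the unmethylated ones. AAACC had 2961 and 3242 in methylated and 1528 and 1829 in unmethylated libraries, and AAACU had 2992 and 3376 in methylated and 1879 and 1766 in unmethylated libraries.

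The ratios by the base at +2 were spread more widely after U-A than after A-A, and part of the spread came from single deep sites. By pooled CPM, the ratio of UAACA was 2.37 ± 0.268, that of UAACC 2.00 ± 0.109 and that of UAACU 1.53 ± 0.130. The log2 ratio of UAACA to UAACU differed by 0.63 between methylated and unmethylated libraries, without overlap (exact permutation p = 0.333, adjusted 0.564). In the 5-mer fit without the deepest member of each motif, the log2 fold change was 1.13 for UAACA and 0.808 for UAACU, closer than the 1.27 and 0.64 with all members. The ratio of AAACA was 1.48 ± 0.180, that of AAACC 1.58 ± 0.100 and that of AAACU 1.48 ± 0.237. The log2 ratio of AAACA to AAACU differed by −0.003 between the groups of libraries, which overlapped. Without the deepest member of each motif, the 5-mer fit gave log2 fold changes of 0.549 for AAACA, 0.729 for AAACC and 0.684 for AAACU. These lay further apart than the 0.59, 0.68 and 0.59 with all members. Set against each other at the same +2 base, U at −2 exceeded A at −2 by 0.68 on the log2 scale before A, by 0.34 before C and by 0.045 before U. Groups of libraries did not overlap in the comparisons before A and before C and overlapped before U. With G at +2, outside DRACH, AAACG had a log2 fold change of 0.21 that missed the threshold (adjusted p = 0.208, edgeR). UAACG had a pooled ratio of 0.428, which rested on 1 deep site with 85.6% of its counts. The 5-mer fit called UAACG lower, at a log2 fold change of −1.20 (edgeR adjusted p = 4.7e-06). The other 55 UAACG sites had a ratio of 1.82, so a call in this fit can rest on 1 site.

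Compared with the other bystander motifs, both member classes were below those with G at −2. The pooled ratio of methylated to unmethylated libraries was 3.58 for GGAC, 2.72 for GAAC, 1.84 for AGAC and 1.50 for UGAC sites before A, C or U. Sites with U-A upstream (1.90) and A-A upstream (1.51) thus stood beside AGAC and UGAC. The log2 ratio of U-A sites to AGAC sites differed by 0.04 between the groups of libraries, and that of A-A sites to UGAC sites by 0.01, with overlapping groups in both cases. Against GGAC the difference was −0.92 for U-A sites and −1.25 for A-A sites, and against GAAC it was −0.52 and −0.85, without overlap (exact permutation p = 0.333 each, adjusted 0.564). The 2052 GGAC bystanders took 9778 CPM in the methylated libraries and 2728 CPM in the unmethylated ones, beside 1211 and 745 CPM for the 1659 members.

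Members were also set apart by the class of their sequence. Those in the m6A class had a pooled ratio of 1.61 ± 0.104 and those in the unmodified class 1.65 ± 0.0878 (SD, n = 2 each). The log2 ratio of the classes differed by −0.03 between methylated and unmethylated libraries (exact permutation p = 0.667), with overlapping groups. The selected adenosines with the same motifs, at position 51, gave other values. A-A motifs selected as methylated in cells took 201 and 210 CPM in the methylated libraries, against 82.99 and 66.93 CPM in the unmethylated ones, a ratio of 2.75 ± 0.425. Those selected as unmodified had 114.2 and 125.1 CPM in the methylated libraries, against 99.58 and 80.81 CPM in the unmethylated ones, a ratio of 1.33 ± 0.213. The bystander ratio of 1.51 lay between them. For U-A motifs the ratios at position 51 were 1.88 ± 0.222 in the m6A class (29 sites) and 1.99 ± 0.634 in the unmodified class (76 sites), close to the 1.90 of the bystanders.

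The level of the members differed along the RNA more than their ratio did. The 597 members upstream of position 51 took 199 and 196 CPM in the methylated libraries, against 119.7 and 120.9 CPM in the unmethylated ones. The 1062 members downstream took 998.5 and 1029 CPM in the methylated libraries, against 653 and 596 CPM in the unmethylated ones. Ratios were 1.64 upstream and 1.62 downstream. Going 5′ to 3′, the ratio was 1.62 at 48 to 26 nt and 1.65 at 25 to 1 nt upstream of the selected adenosine. Downstream of it the ratio was 1.68 at 1 to 24 nt, 1.67 at 25 to 49 nt, 1.58 at 50 to 74 nt and 1.45 at 75 to 88 nt. Another DRACN adenosine (N is any base) within 5 nt, which 222 members had, went with a ratio of 1.61, against 1.63 without one. Of the rises named further on, those in URB1, CDK12, FBXL15, LEMD3 and SEPHS1 had such a neighbour. By predicted pairing the ratio was 1.62 for 1271 unpaired and 1.64 for 388 paired members. Within each subset of these 3 contrasts (side, nearby motif and pairing) both methylated libraries lay above both unmethylated ones. The log2 ratio of 1 subset to the other overlapped between methylated and unmethylated libraries in each contrast.

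Ratios also differed by the bases beyond the 5-mer. By the base at +3, pooled ratios were 1.76 for U, 1.69 for G, 1.56 for A and 1.45 for C. By the base at −3 they were 1.91 for U, 1.75 for G, 1.53 for A and 1.48 for C. The log2 ratio of sites with G at +3 to sites with C there differed by 0.22 between the groups of libraries, without overlap, and that of G to U by −0.06, with overlap. The ratio for each base at +3 differed with the base at +2. For G at +3 it was 1.92 after A, 1.48 after C and 1.545 after U, beside 1.63 for all members. For U at +3 it was 2.13 after A, 2.15 after C and 1.48 after U. For A at +3 the ratios in this order were 1.42, 1.82 and 1.25, and for C they were 1.27, 1.56 and 1.43. U-A sites followed by G at +3 took 179 and 177 CPM in the methylated libraries, against 82.4 and 85.5 CPM in the unmethylated ones, a ratio of 2.12. Those followed by A, U and C there had ratios of 1.88, 1.85 and 1.51. For A-A sites the ratio was 1.68 with U at +3, 1.52 with G, 1.45 with A and 1.43 with C. These splits were described after the values had been seen. The permutation test cannot bring any of them past the threshold with 4 libraries, and the bases at −3 were not compared by a test.

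At the level of single sites, 57 members rose and none fell. The edgeR fit covered the 142938 sites of the table with at least 10 counts in at least 2 libraries. It called 3.7% of them higher and 2.01% lower in methylated than in unmethylated libraries. Of the 1659 members 269 could be tested, and 21.2% of these were higher. No member was lower by edgeR, with 4 at an unadjusted p under 0.05, and DESeq2 called none lower and 32 higher (2.12% of all sites higher and 1.26% lower). Leaving out methylated replicate 1 gave 34 rises and 1 fall (2.26% and 1.13% of all sites), and leaving out unmethylated replicate 1 gave 57 rises and 1 fall (3.99% and 2.31%). With at least 50 counts required, 35 of 68 members rose, where 8.32% of all sites were higher and 4.93% lower. With the replicate number as a block, 59 rose (3.92% of all sites higher and 2.12% lower). The median log2 fold change of the tested members was 0.71 (quartiles 0.18 and 1.47), beside −0.01 over all sites tested. The count filter shaped this set. Of the 269, 151 reached 10 counts in all 4 libraries and had a median of 0.47 with 34 rises, whereas 57 reached it only in the methylated libraries and had a median of 1.84 with 18 rises, a set that had to be high. Of the rises named further on, those in DICER1, MARK3, ANKRD10, HEY2, FAAP100, ZBTB43, PDRG1 and FBXL15 belonged to this set. The tested members therefore do not stand for all members.

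By motif, rises made up 8 of 22 tested UAACC sites, 10 of 33 UAACA sites and 9 of 33 UAACU sites, and 12 of 59 AAACA, 10 of 63 AAACC and 8 of 59 AAACU sites. The medians of the log2 fold change were 1.32, 1.20 and 1.00 for the U-A motifs in this order and 0.70, 0.54 and 0.63 for the A-A motifs. The shares of rises were 30.7% for U at −2 and 16.6% for A at −2, beside 57.5% for GGAC, 40.8% for GAAC, 28.7% for AGAC and 16.5% for UGAC bystanders before A, C or U. Both methylated libraries lay above both unmethylated ones in 161 of the 269 members, where 26% of all sites tested did so, and below them in 14, where 21.8% did so. The 161 included 55 of the 57 members that passed the count filter only through the methylated libraries. Among the 151 members that passed it in all 4 libraries, 82 lay above and 11 below. Neither the shares by motif nor the values below, by the base at +3 and by the selected adenosine, were split in this way. They were drawn from the 269 tested members, of which 57 had passed only through the methylated libraries. By the base at +3, rises made up 30 of 98 tested members for G, 14 of 51 for U, 7 of 59 for A and 6 of 61 for C. Of the 30 rises with G there, 18 also had A at +2, among 45 tested members with both bases. Rises with another base at +3 were not split by the base at +2. In 155 tested members the selected adenosine of the same sequence was tested too. Members had a median log2 fold change of 0.85 where that adenosine was called higher (71 members, 20 of them higher) and of 0.36 where it was not (84 members, 12 higher). Both sites of such a pair share the libraries and the total of the sequence.

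UAACC sites rose in DICER1, MARK3, DVL1 and ANKRD10 among those named, and all but DVL1 could be tested only through their methylated counts. The UAACC of DICER1, the gene of the enzyme that matures microRNAs, lay 67 nt downstream of the selected adenosine and had 8.31 and 7.54 CPM in the methylated libraries, against 0.477 and 0.665 CPM in the unmethylated ones. It rose by 3.73 ± 0.43 SE on the log2 scale (edgeR adjusted p = 3.69e-06), and by 3.81 when set against the total of its sequence. The table places this sequence at position 95103531 of chromosome 14, minus strand, in coordinates whose build is not stated. The UAACC of MARK3, a microtubule-affinity regulating kinase gene, had 51 and 53 counts in the methylated libraries, against 8 and 1 in the unmethylated ones (log2 fold change 3.23 ± 0.57, edgeR adjusted p = 0.000701). The methylated libraries were close to each other at these sites, and the unmethylated ones of MARK3 were not. The UAACC of DVL1, a Wnt pathway gene, had 9.31 and 12.4 CPM in the methylated libraries, against 4.39 and 5.15 CPM in the unmethylated ones (1.15 ± 0.31). Its call was lost in DESeq2, without methylated replicate 2 and without unmethylated replicate 1, with log2 fold changes of 1.14, 0.962 and 1.01. In ANKRD10 the site had 22 and 11 counts in the methylated libraries, against 1 and 0 in the unmethylated ones, a ratio of 28.2 whose 95% counting interval ran from 4.72 to 1146. This call was lost without methylated replicate 1 (log2 fold change 3.87) and against the sequence total (3.89, edgeR adjusted p = 0.0585). DESeq2 gave no adjusted p for this site and so did not call it.

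UAACA sites rose in NIPA1, LEMD2, LEMD3 and HEY2 among those named. NIPA1, a magnesium transporter gene, had 23.6 and 23.2 CPM in the methylated libraries, against 6.96 and 2.24 CPM in the unmethylated ones (log2 fold change 2.34 ± 0.37, edgeR adjusted p = 0.000175). LEMD2, a gene for an inner nuclear membrane protein, had 13.7 and 14.1 CPM in the methylated libraries, against 3.24 and 2.49 CPM in the unmethylated ones (2.25 ± 0.32, adjusted p = 6.81e-05). LEMD3, whose product lies in the same membrane, had 8.77 and 13.6 CPM in the methylated libraries, against 4.01 and 5.40 CPM in the unmethylated ones (1.20 ± 0.33, adjusted p = 0.0272). The groups did not overlap at any of them, which the choice of named rises required. The call in LEMD3 was lost in DESeq2, against the total of its sequence, and without methylated replicate 2 or unmethylated replicate 1. HEY2, a Notch target gene for a repressor, had 19 and 21 counts in the methylated libraries, against 1 and 2 in the unmethylated ones, a ratio of 11.4 with a counting interval of 3.62 to 57.5. It too could be tested only through its methylated counts. Its call was lost without methylated replicate 1 or 2 (log2 fold changes of 3.41 and 3.35) and against the sequence total (2.41, edgeR adjusted p = 0.141). DESeq2 gave no adjusted p for the HEY2 site and so did not call it.

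UAACU sites rose in FAAP100, LDB1, SEPHS1 and TRIB2 among those named. The largest rise was in FAAP100, a gene of the Fanconi anaemia core complex, with 18 and 30 counts in the methylated libraries, against 7 and 0 in the unmethylated ones (log2 fold change 2.46 ± 0.74, edgeR adjusted p = 0.0495), and it could be tested only through its methylated counts. This call was lost under several settings, among them library totals as the scaling (adjusted p = 0.0521, edgeR). LDB1, a LIM domain binding protein gene, had 95 and 85 counts in the methylated libraries, against 15 and 38 in the unmethylated ones (1.52 ± 0.38). SEPHS1 had 72 and 65 counts in the methylated libraries, against 23 and 26 in the unmethylated ones (1.22 ± 0.37). TRIB2, a pseudokinase gene, had 10.7 and 9.27 CPM in the methylated libraries, against 4.96 and 4.07 CPM in the unmethylated ones (1.12 ± 0.32). Each of these 4 calls was lost in DESeq2, where the log2 fold changes of 2.44, 1.52, 1.22 and 1.11 were close to those above. Each was also lost against the total of the sequence, with log2 fold changes of 1.995 in FAAP100, 1.27 in LDB1 (edgeR adjusted p = 0.0509), 1.13 in SEPHS1 and 0.711 in TRIB2. Leaving out either methylated replicate ended the calls in SEPHS1 and TRIB2, as did methylated replicate 1 in LDB1 and replicate 2 in FAAP100. Leaving out unmethylated replicate 1 ended the calls in LDB1 and SEPHS1, and unmethylated replicate 2 those in FAAP100, SEPHS1 and TRIB2. The deepest member of all was also a UAACU. In GIGYF2, a gene for a translational repressor, it had 575 and 501 counts in the methylated libraries, against 330 and 451 in the unmethylated ones, and a log2 fold change of 0.21 ± 0.27 that did not pass (edgeR adjusted p = 0.748).

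AAACA sites rose in ZBTB43, URB1, CDK12 and CCDC57 among those named. CCDC57 had 25.7 and 25.2 CPM in the methylated libraries, against 13.7 and 9.81 CPM in the unmethylated ones (log2 fold change 1.09 ± 0.28, edgeR adjusted p = 0.0206). Its whole sequence had 15051 and 15118 counts in the methylated libraries, against 5666 and 8269 in the unmethylated ones, and set against these totals the site had a log2 fold change of 0.18 (adjusted p = 0.851, edgeR). The call was also lost without methylated replicate 1 or 2 and without unmethylated replicate 2, at log2 fold changes of 1.04, 1.14 and 0.892. CDK12, a gene for a kinase of the RNA polymerase II tail, had 19.3 and 16.3 CPM in the methylated libraries, against 7.06 and 5.32 CPM in the unmethylated ones (1.502 ± 0.30, adjusted p = 0.00262), and the site stayed called against its total. URB1, a ribosome biogenesis gene, had unequal methylated libraries with 17.3 and 8.59 CPM, against 5.06 and 3.66 CPM in the unmethylated ones (1.56 ± 0.35), and lost its call without methylated replicate 1 (0.92, edgeR adjusted p = 0.317). The largest AAACA rise was in ZBTB43, a zinc finger gene, with 40 and 64 counts in the methylated libraries, against 0 and 6 in the unmethylated ones, a ratio of 14.8 with a counting interval of 6.57 to 41.2. It could be tested only through its methylated counts, and DESeq2 did not call it (log2 fold change 3.89, adjusted p = 0.219). INPP5E, a gene for an inositol phosphatase of cilia, had 337 and 186 counts in the methylated libraries, against 184 and 92 in the unmethylated ones. Its replicates differed in both groups, and its log2 fold change of 0.65 ± 0.35 did not pass (edgeR adjusted p = 0.329).

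AAACC sites rose in AKAP12, ARF6, CLSTN3 and PDRG1 among those named. AKAP12, a gene for an anchor of protein kinase A, had 19.3 and 22.99 CPM in the methylated libraries, against 6.68 and 9.23 CPM in the unmethylated ones (log2 fold change 1.37 ± 0.30, edgeR adjusted p = 0.00505). ARF6, a small GTPase gene of endocytic traffic, had 85 and 75 counts in the methylated libraries, against 10 and 18 in the unmethylated ones (2.25 ± 0.40, adjusted p = 0.000796). Both sites kept their calls against the totals of their sequences. CLSTN3, a calsyntenin gene, had 8.85 and 7.61 CPM in the methylated libraries, against 3.15 and 1.83 CPM in the unmethylated ones (1.71 ± 0.36). Its whole sequence had 22673 and 21418 counts in the methylated libraries, against 6273 and 7598 in the unmethylated ones, and set against them the site had a log2 fold change of 0.29 (edgeR adjusted p = 0.802). PDRG1 had 10 and 16 counts in the methylated libraries, against 1 and 0 in the unmethylated ones, a ratio of 22.2 with a counting interval of 3.65 to 909.8. It could be tested only through its methylated counts. Its call was lost without methylated replicate 1 or 2 and without unmethylated replicate 2, at log2 fold changes of 4.40, 3.81 and 3.24. It was also lost against the sequence total (3.86, edgeR adjusted p = 0.0606). DESeq2 gave no adjusted p for the PDRG1 site and so did not call it.

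AAACU sites rose in FBXL15, SAMD11, SGSM3 and UBE2O among those named. FBXL15, a gene for an F-box subunit of a ubiquitin ligase, had 33 and 41 counts in the methylated libraries, against 3 and 0 in the unmethylated ones, a ratio of 21.1 with a counting interval of 6.93 to 104.4. It could be tested only through its methylated counts and stayed called against the total of its sequence (log2 fold change 3.65, edgeR adjusted p = 0.0029). SGSM3, a gene for a Rab GTPase-activating protein, had 7.55 and 7.54 CPM in the methylated libraries, against 2.58 and 2.41 CPM in the unmethylated ones (1.57 ± 0.34). UBE2O, a ubiquitin-conjugating enzyme gene, had 9.46 and 9.57 CPM in the methylated libraries, against 3.82 and 3.82 CPM in the unmethylated ones (1.28 ± 0.32), and lost its call without methylated replicate 1 (1.26, edgeR adjusted p = 0.0752). SAMD11 had 54 and 74 counts in the methylated libraries, against 20 and 15 in the unmethylated ones (1.59 ± 0.40). This call was lost in DESeq2 (1.59, adjusted p = 0.0608), without methylated replicate 2 (1.40), without unmethylated replicate 2 (1.34) and against the sequence total (1.01). The groups did not overlap at these sites, again because named rises were chosen that way. MXRA8 was among the 4 members with the highest mean CPM in loci with 1 gene and did not pass the test. It had 252 and 296 counts in the methylated libraries, against 277 and 240 in the unmethylated ones, a log2 fold change of −0.18 ± 0.27 (adjusted p = 0.794, edgeR).

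The 57 rises lay in 55 sequences, and 50 of them were in loci with exactly 1 gene, 47 genes in all. Their log2 fold changes ran from 1.09 to 4.51. Both sequences with 2 rising members held motifs of different kinds. In SNRNP25, a gene of the minor spliceosome, the UAACU 38 nt downstream of the selected adenosine had 72 and 83 counts in the methylated libraries, against 12 and 17 in the unmethylated ones. The AAACC 13 nt further on, at 51 nt, had 58 and 57 counts in the methylated libraries, against 12 and 20 in the unmethylated ones. In CLSTN3 the AAACA at position 25 had 6.79 and 8.37 CPM in the methylated libraries, against 1.34 and 1.75 CPM in the unmethylated ones, beside the AAACC given above. Whole-sequence totals also differed between libraries, and a further fit took them as an offset. These totals are counts of the same immunoprecipitation, so this fit cannot tell the amount of an RNA from its enrichment. Set against the total of their sequence, 33 of the 57 remained called and 6 other members were newly called, 39 in all, while 1.8% of all sites were higher and 0.404% lower in that fit.

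Genes of the m6A machinery gave no test of these motifs. Of 24 writer, reader and eraser genes 5 held 6 members between them, and none of these members had enough counts to be tested. Of 13 genes whose transcripts are known to carry m6A, 6 held 11 members, 2 of which were tested. The DICER1 site rose and an AAACC of TAF7 missed the threshold. Both lists were chosen with earlier results of these data known. Tags of the same sequence gave a view of technical spread. Fitted without summing tags, 302 tag sites of members were tested, of which 58 were higher and none lower, where 3.8% of all tag sites were higher and 1.84% lower. Of 21 members tested with all 3 tags, 15 had 3 positive log2 fold changes, 1 was called higher with each tag and 16 with none.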

How the data were processed

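The authors deposited raw counts of crosslink stops per nucleotide, 1 line for every designed RNA and library, with no normalization in the file. FastQC 0.11.8, STAR 2.7.3a and bedtools 2.27.1 appear in the submitters' processing notes without a role, and neither the build nor the handling of duplicates is stated there. Reads may thus not be independent molecules, and intervals cover counting error only.

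Counts of the tagged RNAs of a sequence were summed. Every position of the 3949 sequences that reached 10 counts in 2 or more libraries was fitted with edgeR 4.0.16 in R 4.3.3 (quasi-likelihood, TMM scaling, no covariate, two-sided, threshold 0.05 after Benjamini-Hochberg). CPM are counts over the library total, scaled to 1000000. Sums per 5-mer were fitted in the same way with no count filter. Each SE was derived from the log2 fold change and its F statistic. Counting intervals are exact binomial at 95%, and differences between classes used exact permutation of the libraries. Whether replicates were separate reactions is not stated, so p-values measure only the variation among these libraries. DESeq2 1.42.0 was an alternative. Pairing came from ViennaRNA 2.7.2, with a site called unpaired at a probability of at least 0.5.

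Gene symbols came from matching each sequence's coordinate to RefSeq genes (GRCh38.p14). A gene was overlapped by 98.7% of 3488 loci, against 66.0% to 72.2% after shifts of 50000 or 500000 nt, and exons, introns and strand were not resolved. Named sites lay in loci with exactly 1 gene. For each 5-mer they were the 3 called rises with the highest mean CPM and the largest called rise, where groups did not overlap, and over all members the 3 largest called falls (none was called) and the 4 highest mean CPM. The members, lists and splits were chosen with earlier results of these data known.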

Additional observations from a re-analysis of the deposited data

Results flagged for a closer look

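The same motifs outside the member sequences also had higher pooled levels in the methylated libraries, in data that the comparisons above do not use. In the permutated sequences, in which stronger and weaker motifs had been swapped, 214 bystanders with A or U at −2 and A at −1 took 48.7 and 58.1 CPM in the methylated libraries, against 32.7 and 31.2 CPM in the unmethylated ones, a ratio of 1.67 (exact permutation p = 0.333, the smallest possible). In the other designed sequences 24 such sites took 16.2 and 15.9 CPM in the methylated libraries, against 9.82 and 9.23 CPM in the unmethylated ones, a ratio of 1.68.

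Part of the permutated sequences held the same 21-nt windows as members, within a changed sequence. These copies had 410 and 504 counts in the methylated libraries, where the 214 permutated sites above had 639 and 771. The ratio of 1.67 is therefore largely not one of new windows. The 41 shared windows had a ratio of 2.07 ± 0.623 in the member sequences and of 1.54 ± 0.223 over their 161 copies (SD, n = 2 each). Ratios between single libraries overlapped, at 1.63 to 2.75 in the member sequences and 1.34 to 1.74 over the copies. At the deepest of these windows, the AAACA of NAA40, the groups overlapped in CPM in the member sequence and in its copies. The member had 32 and 34 counts in the methylated libraries, against 31 and 15 in the unmethylated ones, and its 3 copies together had 25 and 17 in the methylated libraries, against 10 and 26 in the unmethylated ones. The AAACC of VEGFA, a gene for a vascular growth factor, had 16 and 23 counts in the methylated libraries, against 3 and 3 in the unmethylated ones. Its 3 copies together had 43 and 58 counts in the methylated libraries, against 8 and 8 in the unmethylated ones. The UAACU of PCYT2, a gene of phosphatidylethanolamine synthesis, had 37 and 35 counts in methylated and 8 and 4 in unmethylated libraries. Its 5 copies together were higher in both methylated libraries than in both unmethylated ones, in counts and in CPM. The ratio of methylated to unmethylated libraries was smaller over these copies than at the PCYT2 member itself, so a rise of the same size was not seen there. This difference was not tested. The 5 copies of the FBXL15 site had no count, in RNAs that held only 23 and 27 counts in all in the methylated libraries and 24 and 30 in the unmethylated ones, so that a rise there was not detectable at this depth. NAA40, VEGFA, PCYT2 and FBXL15 were chosen for this comparison after their values had been seen.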

How the results depend on the processing

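The 5-mer calls held under nearly each setting. All 6 motifs stayed called with library totals, scaling outside DRACN, DESeq2, the replicate block, nearby motifs left out, a filter of 10 counts per site and the deepest member of each 5-mer left out, the last of these chosen after seeing the data. With 1 library left out they ranged from 0.48 to 0.71 (AAACA), 0.64 to 0.72 (AAACC), 0.46 to 0.73 (AAACU), 1.17 to 1.38 (UAACA), 0.97 to 1.08 (UAACC) and 0.55 to 0.74 (UAACU) on the log2 scale, and AAACU without methylated replicate 2 (0.52) missed the threshold. The pooled U-A ratio was 1.96 without members near another DRACN and 2.01 without the deepest members, both chosen after seeing the data.

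Counts of single sites depended on the tool and the libraries. DESeq2 called 32 rises, all among the 57. A minimum of 50 counts left 68 members and 35 rises. With 1 library left out, rises numbered 34 to 57 and falls 0 to 1. The causes were not tested, apart from the fewer sites or libraries in such fits. With the replicate block there were 59 rises, and the replicate numbers did not pair the libraries, since deviations of libraries with the same number had a correlation of −0.07 over 142938 sites. Of 24 named rises 9 stayed called under each alternative that could be fitted. DESeq2 gave an adjusted p for 21 of the 24, and 11 of the 24 were lost when set against the sequence total. The log2 fold change of GIGYF2 reversed to −0.008 in that fit. Depth limits the rest, since 1390 members could not be tested.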
